A study of Mus musculus with 28 samples.

Results

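The data described here are the gene expression response of tdTomato+ luminal mammary epithelial cells to estrogen plus progesterone (E+P). They were chosen by their labels, as the 7 tdTomato+ luminal libraries of the 28 libraries in the series. Adult female PdgfrαCre R26mTmG mice of the strain C57BL/6 were either left untreated (4 mice) or given estrogen and progesterone (3 mice). All 7 mice carry both alleles. Cre is expressed from Pdgfrα sequences from development onwards. A cell that once expressed it and its progeny become GFP+, and all other cells keep membrane tdTomato. The tdTomato+ luminal cells are therefore the luminal cells without a history of Cre activity, and a cell in which Cre failed to recombine the reporter would also be counted here. Each mouse gave 1 library of GFP+ and 1 of tdTomato+ cells from the luminal and from the stromal gate. Luminal cells were sorted as CD49f low, EpCAM+ and negative for endothelial, erythroid and leukocyte surface markers. The methods describe slow-release hormone pellets in wild-type mice, and neither the dose nor the duration is in the labels of these samples. The untreated libraries are numbered 1 to 4 and the E+P libraries 1 to 3, as the labels number them, and no untreated mouse is paired with a treated one.

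The luminal layer of the mammary gland holds hormone-sensing cells, which carry the estrogen receptor (Esr1), the progesterone receptor (Pgr) and the prolactin receptor (Prlr), and receptor-poor cells, which include alveolar progenitors. Progesterone is known to act on hormone-sensing cells, which then release paracrine signals such as RANKL (Tnfsf11) and Wnt4 that make neighbouring cells divide. Prolactin acts through Jak2 and Stat5 to prepare alveolar cells for milk secretion. The comparison of E+P with untreated mice asks how the luminal cells outside the Pdgfrα lineage respond to these hormones.

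Between 12199964 and 22643378 reads per untreated library and between 12353299 and 24583803 per E+P library were counted on genes. A floor of 3 counts corresponds to 0.122 to 0.246 CPM in a single library. CPM is the read count of a gene relative to all counts of its library. Such floors cover counting error only, since reads carry no molecular identifiers. Pearson's r over log2 CPM was 0.948 to 0.963 among untreated libraries, 0.966 to 0.980 among E+P libraries and 0.889 to 0.921 between the groups. The 10 most abundant genes took 24.6% to 26.0% of the counts in untreated and 27.9% to 33.5% in E+P libraries, and mitochondrial genes 9.90% to 10.4% and 10.7% to 12.8%. Neither share overlapped between the groups, and each had an exact permutation p of 0.0286, two-sided, which is the smallest that 3 against 4 libraries allow. The composition of the libraries therefore moved with the treatment. Its part in the results was examined only by a fit without the 10 most abundant genes, given below, and was not tested otherwise. Values are given as CPM scaled by TMM, whose factors were 0.982 to 1.04 in untreated and 0.841 to 0.899 in E+P libraries.

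The label was borne out by the markers. The summed level of 8 luminal markers, which include the keratins Krt8, Krt18 and Krt19 and Epcam, was 8561 ± 318 CPM (SD, n = 4) in untreated and 8617 ± 326 CPM (SD, n = 3) in E+P libraries. Of the other cell kinds, 10 basal markers summed to 15.6 to 62.6 CPM untreated and 47.3 to 79.6 CPM after E+P, and 8 fibroblast markers to 9.57 to 101 and 52.3 to 98.2 CPM. The 6 pericyte markers came to 1.11 to 40.7 and 1.12 to 2.20 CPM, the 6 adipocyte markers to 0.0674 to 1.92 and 0.194 to 0.367 CPM, and the 7 skeletal muscle markers to 0.940 to 48.9 and 1.19 to 3.35 CPM. The sums of 3 cell kinds did not overlap between the groups and had an exact permutation p of 0.0286. They were those of 10 leukocyte markers, at 1.07 to 1.75 CPM untreated and 3.05 to 10.0 CPM after E+P, of 5 Schwann cell markers, at 79.9 to 121 and 36.6 to 48.2 CPM, and of 5 erythroid markers, at 1.68 to 6.84 and 0.533 to 0.691 CPM. The sum of 6 endothelial markers was 35.0 to 148 CPM untreated and 249 to 269 CPM after E+P (p = 0.0571, exact permutation), which followed Vwf alone, since Pecam1, a defining endothelial gene, was at 1.87 ± 0.617 CPM untreated to 0.964 ± 0.176 CPM after E+P. Mbp made up most of the Schwann cell sum. In bulk libraries, fewer cells of a kind and less RNA per cell cannot be told apart.

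E+P changed the abundance of many genes in tdTomato+ luminal cells. Of 16538 genes tested, 2327 (14.1%) passed edgeR's quasi-likelihood test with an adjusted p below 0.01. After E+P, 1262 (7.63%) of them were higher and 1065 (6.44%) lower. Changes of at least 4-fold were found for 366 of the higher and 246 of the lower genes. In 2313 of the called genes, the 3 E+P libraries lay entirely above or below the 4 untreated ones. The same values gave the calls, so this count adds no separate support, and the share among all genes tested is not given here. The direction depends on the scaling: with library size alone in place of TMM, the median log2 fold change of all genes moved from -0.05 to -0.27, and 731 higher and 2165 lower genes were called. All fold changes below are relative to the TMM scaling. Leaving out 1 library left between 1140 (without E+P 2 or E+P 3) and 2144 calls (without untreated 2). In every such fit, here and below, the GFP+ luminal library of the same mouse was left out as well.

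**Figure D1:**
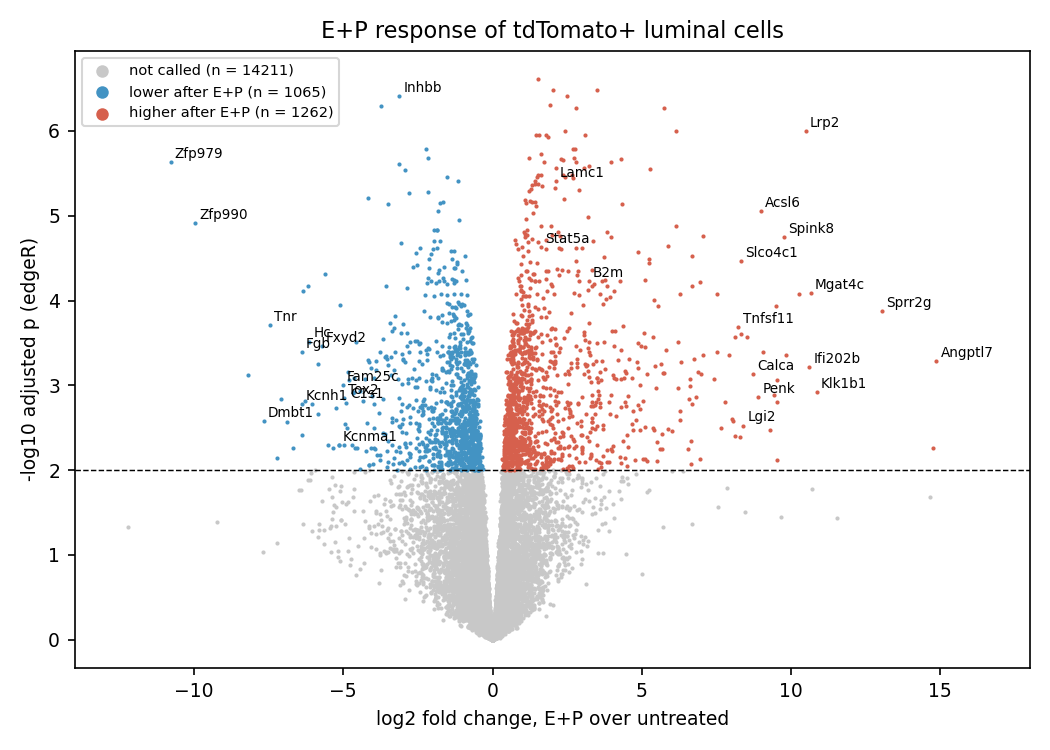
E+P response of tdTomato+ luminal cells, with the log2 fold change of E+P over untreated on the horizontal axis and -log10 of edgeR's adjusted p on the vertical axis, 1 point per gene. The 1262 called genes to the right and the 1065 to the left lie above the dashed line at an adjusted p of 0.01, and the labelled genes are those with the largest changes and 5 genes named in the text.

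Of the 12 named genes with the largest increases, 4 had no count in any untreated library, 5 had 1 to 3 counts over the untreated group, and 3, Penk, Lrp2 and Calca, had more. Angptl7, which encodes a secreted angiopoietin-like protein (chr4:148495183-148500460, GRCm38), had no count in any untreated library and 356, 199 and 157 CPM after E+P, at least 4914-fold higher against a floor of 3 counts over the untreated group. Sprr2g, a small proline-rich protein of the cornified envelope, was likewise at 0 and reached 37.6, 89.1 and 73.1 CPM, at least 1629.9-fold higher. Mgat4c, a glycosyltransferase gene, rose at least 308-fold and Ifi202b, of the interferon-inducible p200 family, at least 263-fold, both from 0 in all 4 untreated libraries to 7.72 to 15.5 and 9.99 to 17.0 CPM. All 4 genes were thus undetected in every untreated library and present in every E+P library.

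Penk, the precursor of the enkephalin peptides (chr4:4133531-4138819), was at 0.233, 9.36, 2.56 and 0 CPM in the untreated libraries and 1922, 1009 and 1235 CPM after E+P (log2 fold change 8.90 ± 1.50, adjusted p = 0.00138). Each treated library thus lay far above the highest untreated one. Lrp2, the endocytic receptor megalin (chr2:69424340-69586065), was at 0.0582, 0, 0.240 and 0 CPM in the untreated libraries and 85.4, 87.5 and 121 CPM after E+P (log2 fold change 10.50 ± 0.65, adjusted p = 1.00e-06). Calca, which encodes calcitonin and calcitonin gene-related peptide (chr7:114631478-114636357), was at 1.05, 0, 0.400 and 2.39 CPM in the untreated libraries and 982, 198 and 209 CPM after E+P (log2 fold change 8.74 ± 1.34, adjusted p = 7.29e-04). E+P 1 carried much more Calca than the other treated libraries, and all 3 were far above the untreated range.

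Other genes had 1 to 3 counts in the untreated group, so that their ratios are imprecise. The acyl-CoA synthetase gene Acsl6 was higher by 606-fold (95% counting interval 167 to 5014), the protease inhibitor gene Spink8 by 1183-fold (95% counting interval 212 to 46777), the organic anion transporter gene Slco4c1 by 343-fold (95% counting interval 117 to 1667) and the kallikrein gene Klk1b1 by 2320.1-fold (95% counting interval 416 to 91690.1). Lgi2, which encodes a secreted leucine-rich repeat protein, was higher by 302-fold (95% counting interval 83.2 to 2503), but 34.6 CPM in E+P 1 stood against 2.08 and 1.49 CPM in E+P 2 and 3. Klk1b1 was likewise highest in E+P 1, with 85.1, 13.4 and 27.5 CPM in the treated libraries. The treated libraries held 27.2, 16.4 and 14.03 CPM of Acsl6, 31.1, 13.2 and 14.1 CPM of Spink8 and 22.8, 11.6 and 14.7 CPM of Slco4c1. Sprr2g, Klk1b1 and Ifi202b belong to clusters of similar genes among which the reads could have been divided. With 1 library left out, the call was lost for Klk1b1 without untreated 4 (adjusted p = 0.0190) and Lgi2 without any untreated library (adjusted p = 0.0137 to 0.0154). Under another setting the call was lost for Calca with limma-voom (adjusted p = 0.0106), Klk1b1 with limma-voom (adjusted p = 0.0118) and Lgi2 with limma-voom (adjusted p = 0.0520, the highest of 4 such settings). The log2 fold change moved to 10.84 for Penk without untreated 2, 11.89 for Lrp2 without untreated 3, 7.56 for Calca without E+P 1 and 9.80 for Calca without untreated 4. In leave-one-out fits the log2 fold change was 11.24 for Acsl6 without untreated 1, 11.23 for Spink8 without untreated 4, 9.07 for Slco4c1 without untreated 4 and 9.85 for Klk1b1 without E+P 1. The fold change on the log2 scale became 12.34 for Klk1b1 without untreated 4 and 5.60 for Lgi2 without E+P 1. The fitted fold changes of the genes with 1 to 3 untreated counts also depend on the prior count of the fit.

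Of the 12 named genes with the largest decreases, 1 had no count after E+P. Zfp979, a zinc finger gene (chr4:147611937-147642513), was at 11.4 to 16.9 CPM in the untreated libraries and had no count in any E+P library, at least 239-fold lower. Zfp990, another zinc finger gene of chromosome 4 (chr4:145510759-145539188), was at 73.2, 52.5, 77.9 and 144 CPM in the untreated libraries and 0.0919, 0 and 0.159 CPM after E+P (log2 fold change -9.95 ± 0.85, adjusted p = 1.21e-05). Dmbt1, a secreted mucosal scavenger protein, was at 1045, 1813, 928 and 163 CPM in the untreated libraries and 2.20, 5.37 and 6.59 CPM after E+P (log2 fold change -7.67 ± 1.45, adjusted p = 0.00264). Each of these genes was almost absent from all 3 treated libraries. The decreases of Zfp979 and Zfp990 were not particular to these cells, as values of the other sorted populations given below show.

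Fgb, the beta chain of fibrinogen, fell from 148 ± 73.9 CPM untreated to 1.65 ± 1.09 CPM after E+P (log2 fold change -6.39, adjusted p = 4.07e-04). The complement genes Hc and C1s1 fell from 31.3 to 0.393 CPM and from 30.2 to 0.953 CPM. Fxyd2, a modulator of the sodium-potassium pump, fell from 227 ± 123 CPM untreated to 4.21 ± 1.38 CPM after E+P (log2 fold change -5.72, adjusted p = 3.48e-04). Of 2 potassium channel genes, Kcnh1 fell from 87.2 to 1.10 CPM and Kcnma1 from 14.5 to 0.363 CPM. The matrix glycoprotein gene Tnr fell from 16.2 to 0.122 CPM, the HMG-box gene Tox2 from 181 to 5.51 CPM and Fam25c from 48.2 to 1.51 CPM. In C1s1, untreated 4 was high at 81.8 CPM beside 8.44 to 17.4 CPM in the other three untreated libraries. The call did not hold in leave-one-out fits for Dmbt1 without any E+P library (adjusted p = 0.0192 to 0.0252), C1s1 without any E+P library (adjusted p = 0.0113 to 0.0159) and Kcnh1 without any E+P library (adjusted p = 0.0127 to 0.0166). Leave-one-out fits ended the call for Kcnma1 without any E+P library or untreated 1 or 2 (adjusted p = 0.0125 to 0.0421), Tox2 without E+P 3 (adjusted p = 0.0122) and Fam25c without E+P 1 or 2 (adjusted p = 0.0107 to 0.0150). Among the other settings, calls were lost for Dmbt1 with limma-voom (adjusted p = 0.0149, the highest of 2 such settings), C1s1 with limma-voom with the mouse as a random block (adjusted p = 0.0371, the highest of 3 such settings) and Kcnh1 with limma-voom (adjusted p = 0.0445, the highest of 3 such settings). Other settings ended the call for Kcnma1 with limma-voom (adjusted p = 0.121, the highest of 4 such settings) and Tnr with limma-voom with the mouse as a random block (adjusted p = 0.0224, the highest of 2 such settings). Without 1 library, the log2 fold change was -9.27 for Zfp990 without E+P 2, -11.07 for Zfp990 without E+P 3, -6.82 for Hc without E+P 3 and -3.70 for C1s1 without untreated 4. The log2 fold change moved to -5.32 for Kcnh1 without untreated 4, -6.27 for Kcnma1 without E+P 3, -11.05 for Tnr without E+P 1 and -6.76 for Tnr without E+P 2. In leave-one-out fits the log2 fold change was -6.81 for Tnr without E+P 3 and -5.56 for Tox2 without E+P 2.

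**Figure D2:**
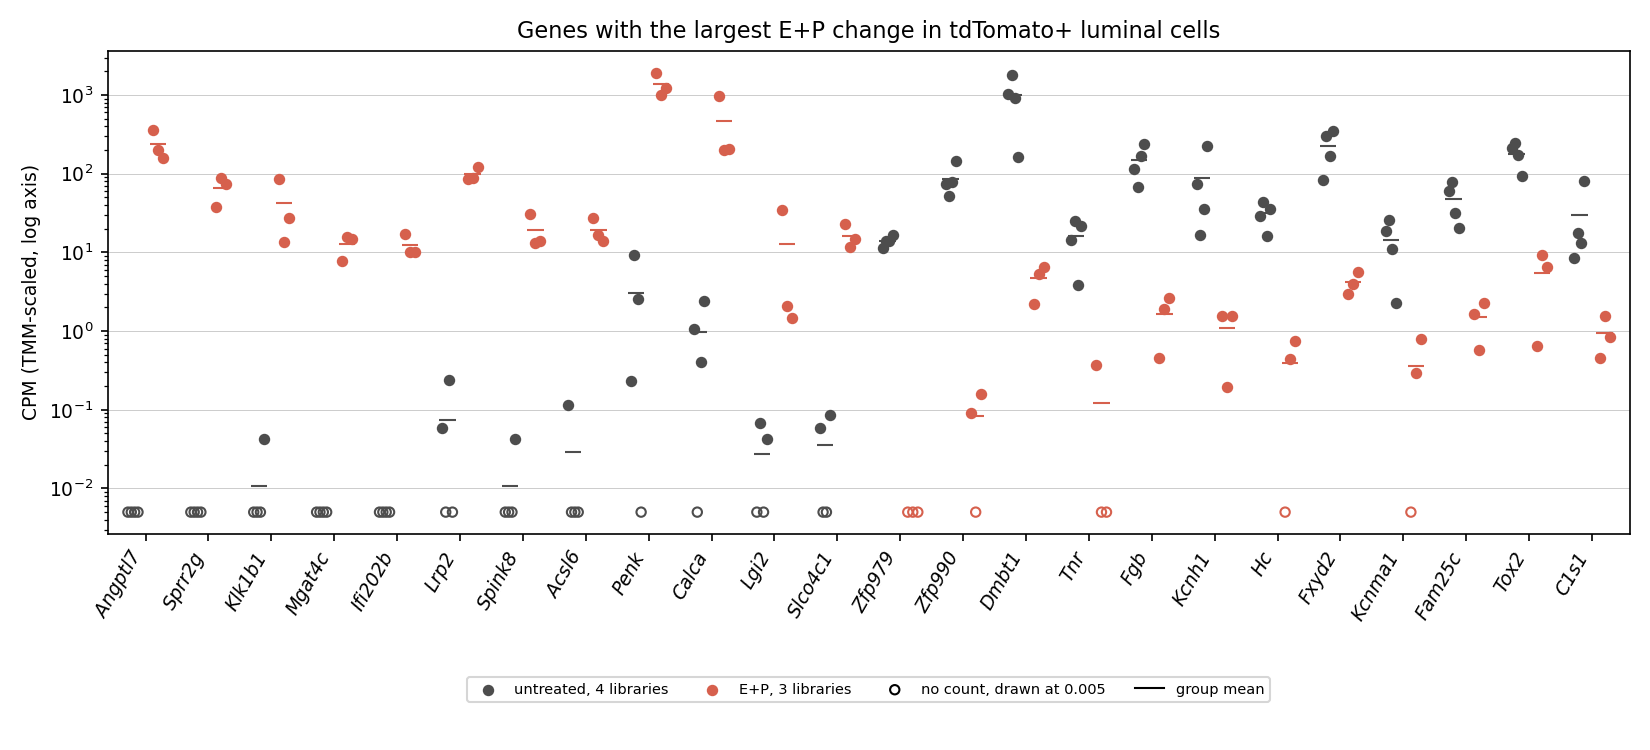
CPM on a log axis of the 24 named genes with the largest changes, 12 higher and 12 lower, with 1 point per library, a bar for the group mean and open circles at 0.005 CPM for libraries with no count. No overlap between the untreated and E+P points was a condition for choosing these genes. Lgi2 and Calca are highest in 1 E+P library.

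Genes of the hormone-sensing luminal cell were called in both directions, and in a share near that of all genes. Of 16 tested, 2 rose, 1 fell and 13 did not pass (18.8% called beside 14.1% of all genes), with a median log2 fold change of -0.29 beside -0.05 for all genes. Greb1, a classic estrogen-induced gene, was at 11.5, 51.3, 27.3 and 4.19 CPM in the untreated libraries and 408, 846 and 812 CPM after E+P (log2 fold change 4.88 ± 0.86, adjusted p = 0.00169), so that its lowest treated library lay far above its highest untreated one. Myb, a transcription factor gene of luminal cells, was at 76.4, 44.7, 49.0 and 64.3 CPM in the untreated libraries and 257, 173 and 237 CPM after E+P (log2 fold change 1.92 ± 0.37, adjusted p = 0.00287). Cited1, a transcriptional coactivator of hormone-sensing cells, was at 104, 48.6, 38.5 and 129 CPM in the untreated libraries and 10.7, 10.8 and 13.4 CPM after E+P (log2 fold change -2.78 ± 0.62, adjusted p = 0.00641). Both moved outside the untreated range in all 3 treated libraries, Myb above it and Cited1 below it.

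The receptors themselves did not pass the threshold. Esr1 was at 324, 431, 245 and 248 CPM in the untreated libraries and 85.5, 149.2 and 155 CPM after E+P (log2 fold change -1.26 ± 0.41, adjusted p = 0.0383), with no overlap between the groups (exact permutation p = 0.0286). Prlr was at 3052, 3940.5, 3348 and 2732 CPM in the untreated libraries and 1101, 1815 and 1906 CPM after E+P (log2 fold change -1.02 ± 0.52, adjusted p = 0.164), also without overlap. Pgr was at 374, 765, 683 and 332 CPM in the untreated libraries and 583, 822 and 812 CPM after E+P (log2 fold change 0.46 ± 0.66, adjusted p = 0.643), and its groups overlapped. Foxa1, which opens chromatin for the estrogen receptor, was at 363, 401, 289 and 326 CPM in the untreated libraries and 163, 186 and 206 CPM after E+P (log2 fold change -0.90 ± 0.50, adjusted p = 0.205), again without overlap. Esr1, Prlr and Foxa1 thus had lower values in all 3 treated libraries than in any untreated one, while the test across genes did not call them. Calls that ended without 1 library were those of Greb1 without E+P 2 (adjusted p = 0.0110), Myb without untreated 3 (adjusted p = 0.0143) and Cited1 without any E+P library or untreated 4 (adjusted p = 0.0126 to 0.0445). A different setting removed the call for Myb with a fit of all 28 libraries (adjusted p = 0.0170, the highest of 2 such settings) and Cited1 with no low-count filter (adjusted p = 0.0235). The fold change on the log2 scale became 5.62 for Greb1 without untreated 2. Esr1 was called by DESeq2 and in a fit of all 28 libraries (adjusted p = 0.00438 and 0.00804), and Prlr and Foxa1 in a fit of the 7 libraries alone (adjusted p = 0.00741 and 0.00197).

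Of 12 genes linked to the paracrine action of progesterone, 3 rose (25% beside 7.63% of all genes) and none fell in edgeR, where DESeq2 called 1 and the fit without untreated 2 called 2 lower. DESeq2 called 1740 of all genes lower, and the fit without untreated 2 called 1049. Tnfsf11, the ligand RANKL (chr14:78277445-78308043), was at 0.990, 0, 0 and 0.684 CPM in the untreated libraries and 162, 131 and 139 CPM after E+P (log2 fold change 8.24 ± 1.04, adjusted p = 2.05e-04). It was undetected in 2 untreated libraries, below 1 CPM in the other two and similar in all 3 treated ones. Calca, given above, was the second. Tnfrsf11b, the decoy receptor osteoprotegerin, was the third, at 1.34, 1.95, 1.28 and 1.15 CPM in the untreated libraries and 13.5, 4.60 and 6.59 CPM after E+P (log2 fold change 2.51 ± 0.52, adjusted p = 0.00320), with a higher level in E+P 1 than in the other treated libraries. The RANKL receptor Tnfrsf11a averaged 6.17 CPM untreated and 2.57 CPM after E+P (log2 fold change -1.29, adjusted p = 0.0465).

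Not all progesterone mediators were called. Wnt4 was at 107, 78.4, 84.5 and 91.4 CPM in the untreated libraries and 143, 97.7 and 118 CPM after E+P (log2 fold change 0.41 ± 0.57, adjusted p = 0.632). Areg, which encodes amphiregulin, was at 433, 219, 473 and 241 CPM in the untreated libraries and 350.1, 387 and 501 CPM after E+P (log2 fold change 0.27 ± 0.65, adjusted p = 0.790). The Wnt4 groups overlapped by 1 untreated library, and the Areg groups overlapped broadly. Ccnd1, the cyclin D1 gene, was at 115, 59.8, 97.9 and 167.6 CPM in the untreated libraries and 61.5, 60.1 and 39.4 CPM after E+P (log2 fold change -1.04 ± 0.34, adjusted p = 0.0395), and its groups overlapped. Rspo1 averaged 2.87 CPM untreated and 14.3 CPM after E+P and did not pass (adjusted p = 0.0583). The call was lost for Tnfrsf11b without E+P 1 or untreated 3 or 4 (adjusted p = 0.0121 to 0.0177), and Tnfsf11 had a log2 fold change of 8.88 without untreated 1.

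In the prolactin and STAT5 pathway, 4 of 14 genes rose and 1 fell (35.7% called beside 14.1% of all genes). Stat5a, the signal transducer that prolactin activates (chr11:100859351-100885169), was at 122, 122, 153 and 122 CPM in the untreated libraries and 318, 416 and 474 CPM after E+P (log2 fold change 1.63 ± 0.17, adjusted p = 2.33e-05). Stat5b rose from 102 to 158 CPM (log2 fold change 0.64, adjusted p = 5.14e-04). Jak2, the kinase bound to the receptor, was at 196, 263, 293 and 181 CPM in the untreated libraries and 638, 595 and 719 CPM after E+P (log2 fold change 1.48 ± 0.23, adjusted p = 5.08e-04). The kinase and both STAT5 genes were thus higher in every treated library.

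Socs2, a feedback inhibitor and STAT5 target, was at 7.51, 11.8, 12.6 and 43.2 CPM in the untreated libraries and 304, 179.7 and 202 CPM after E+P (log2 fold change 3.59 ± 0.55, adjusted p = 7.03e-04). Even untreated 4, which stood above the other three, was far below the lowest treated value. Cav1, caveolin-1, which holds Jak2 in check in the gland, was at 87.1, 243, 48.5 and 98.1 CPM in the untreated libraries and 21.2, 18.9 and 24.1 CPM after E+P (log2 fold change -2.47 ± 0.49, adjusted p = 0.00341). The other feedback genes had small values of change, with Cish at log2 fold change 0.53, Socs1 at 0.75 and Socs3 at -0.29, and none of these passed. Elf5, a transcription factor of alveolar cells downstream of prolactin, was at 47.8, 22.4, 52.8 and 98.7 CPM in the untreated libraries and 19.3, 22.1 and 10.9 CPM after E+P (log2 fold change -1.67 ± 0.42, adjusted p = 0.0114) and missed the threshold, although its groups did not overlap. Calls were lost in leave-one-out fits for Cav1 without any E+P library (adjusted p = 0.0156 to 0.0240). By setting, the call was lost for Cav1 with a fit of the 7 libraries alone (adjusted p = 0.0202, the highest of 2 such settings). Without 1 library, the log2 fold change was 4.43 for Socs2 without untreated 4 and -1.86 for Cav1 without untreated 2.

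**Figure D3:**
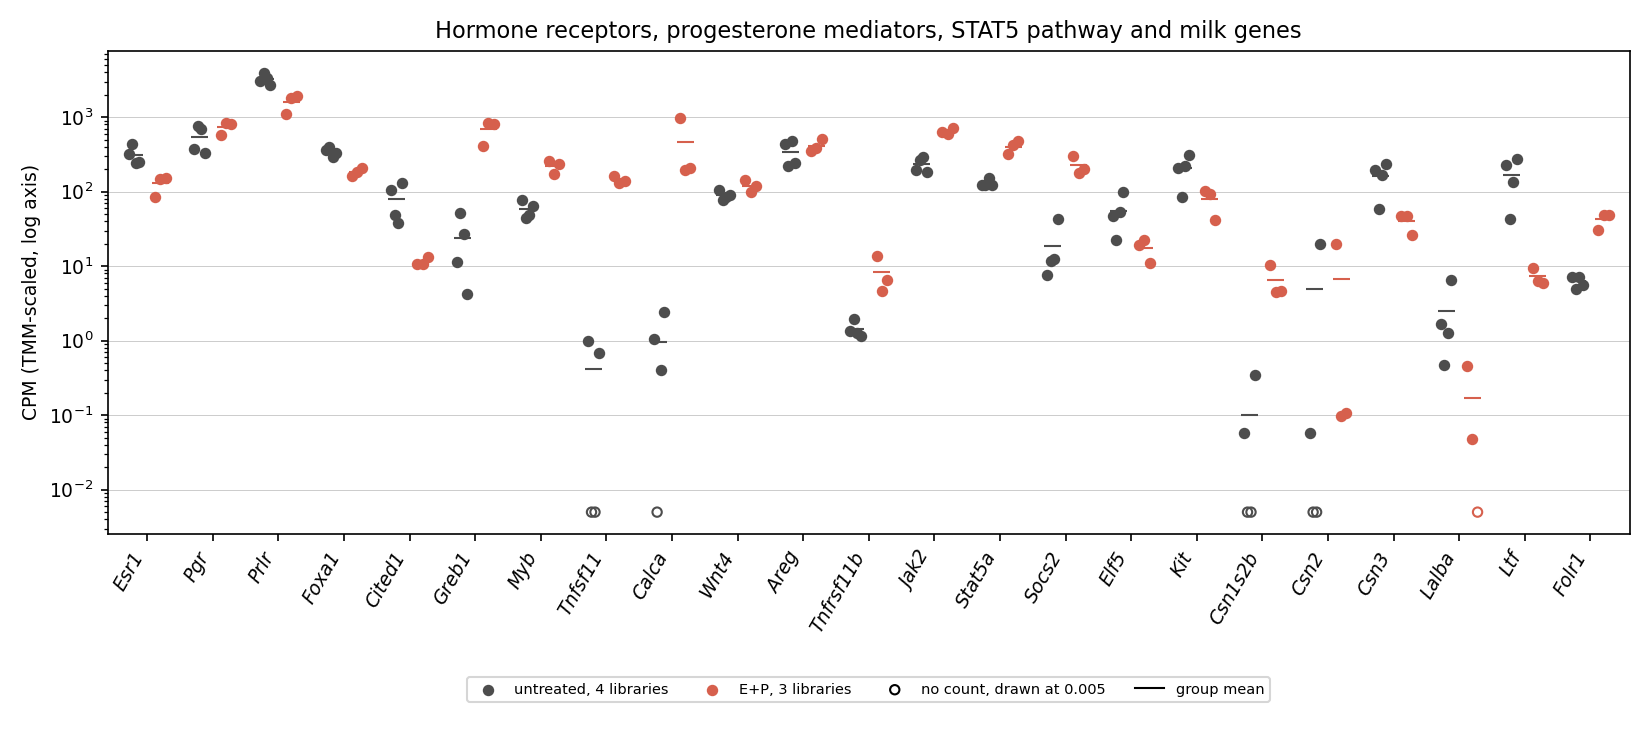
CPM on a log axis of 23 hormone receptor, progesterone mediator, STAT5 pathway and milk genes in the 7 libraries, with 1 point per library, a bar for the group mean and open circles at 0.005 CPM for no count. Tnfsf11, Calca, Greb1, Stat5a, Socs2 and Folr1 are higher and Cited1, Csn3 and Ltf lower in every E+P library, while Pgr, Areg and Csn2 overlap.

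Of 26 milk genes, 22 passed the low-count filter. Of these 22, 2 rose and 2 fell (18.2% called beside 14.1% of all genes), a share near that of all genes. Folr1, the folate receptor (chr7:101858331-101870788), was at 7.10, 4.99, 7.20 and 5.60 CPM in the untreated libraries and 31.0, 48.5 and 48.8 CPM after E+P (log2 fold change 2.78 ± 0.18, adjusted p = 5.37e-07). The casein gene Csn1s2b was at 0.0582, 0, 0 and 0.342 CPM in the untreated libraries and 10.5, 4.55 and 4.62 CPM after E+P (log2 fold change 5.65 ± 0.90, adjusted p = 5.53e-04). Both were above the untreated range in all treated libraries, and Csn1s2b stayed at a low level.

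Csn3, kappa-casein, moved the other way and was at 193, 59.2, 167 and 237 CPM in the untreated libraries and 47.4, 47.7 and 26.5 CPM after E+P (log2 fold change -2.02 ± 0.39, adjusted p = 0.00281). Ltf, the iron-binding protein lactoferrin, was at 228, 42.9, 133 and 274 CPM in the untreated libraries and 9.46, 6.39 and 5.95 CPM after E+P (log2 fold change -4.56 ± 0.61, adjusted p = 3.05e-04). Beta-casein, Csn2, rested on 1 library in each group, with 0.0582, 0, 0 and 19.8 CPM in the untreated libraries and 20.03, 0.0968 and 0.106 CPM after E+P (log2 fold change 0.26 ± 2.53, adjusted p = 0.953). Lalba, the milk protein alpha-lactalbumin, was at 1.69, 0.472, 1.28 and 6.58 CPM in the untreated libraries and 0.459, 0.0484 and 0 CPM after E+P (log2 fold change -4.26 ± 1.40, adjusted p = 0.0400). Wap, whey acidic protein, had no count in any of the 7 libraries. Glycam1, Lpo and Lao1 did not reach the filter. In fits without 1 library, calls ended for Csn3 without any E+P library or untreated 1 or 4 (adjusted p = 0.0105 to 0.0217). Changed settings left no call for Csn3 with a fit of all 28 libraries (adjusted p = 0.0317, the highest of 2 such settings). The log2 fold change moved to 7.75 for Csn1s2b without untreated 4.

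Calls among luminal progenitor genes were all in the lower direction. Of 14 tested, none rose and 4 fell (28.6% beside 6.44% of all genes), and the median log2 fold change was -1.27 beside -0.05 for all genes. In no alternative setting was a member of the list called higher, and between 1 (without E+P 2, E+P 3 or untreated 4) and 8 (DESeq2) were called lower. Among all genes, the fits without E+P 2, E+P 3 and untreated 4 called 475, 426 and 800 lower, and DESeq2 1740. Hey1, a Notch target, was at 28.7, 20.2, 25.8 and 32.0 CPM in the untreated libraries and 2.48, 4.26 and 3.45 CPM after E+P (log2 fold change -2.95 ± 0.44, adjusted p = 5.29e-04). Aldh1a3, a retinal dehydrogenase, was at 267, 60.7, 127 and 274 CPM in the untreated libraries and 47.8, 32.5 and 45.8 CPM after E+P (log2 fold change -2.12 ± 0.49, adjusted p = 0.00776). Cd14 fell from 36.7 to 12.5 CPM (log2 fold change -1.56, adjusted p = 0.00276) and the tetraspanin gene Tspan8 from 12.2 to 4.05 CPM (log2 fold change -1.61, adjusted p = 0.00655).

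Kit, the receptor tyrosine kinase that marks these progenitors, was at 206, 83.6, 221 and 308 CPM in the untreated libraries and 103, 93.9 and 41.4 CPM after E+P (log2 fold change -1.37 ± 0.39, adjusted p = 0.0217) and did not pass. Its highest treated library lay above its lowest untreated one, so the groups overlapped. Itgb3 and Sox10 had lower means without passing, with 18.8 CPM untreated and 2.92 CPM after E+P and 45.8 CPM untreated and 20.4 CPM after E+P. Kit and Elf5 were called lower with DESeq2 (adjusted p = 0.00100 and 9.20e-05) and with scaling by library size only (adjusted p = 0.00858 and 0.00504). When 1 library was left out, no call was made for Aldh1a3 without any E+P library or untreated 1 or 4 (adjusted p = 0.0235 to 0.0480) and Tspan8 without E+P 2 or 3 or untreated 1, 3 or 4 (adjusted p = 0.0168 to 0.0399). Under another setting the call was lost for Aldh1a3 with a fit of the 7 libraries alone (adjusted p = 0.0311, the highest of 4 such settings) and Tspan8 with limma-voom with the mouse as a random block (adjusted p = 0.0339, the highest of 4 such settings).

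Proliferation genes had higher values in general, but few were called. Of 40 tested, 3 rose, 1 fell and 36 did not pass (10.0% called beside 14.1% of all genes). A log2 fold change above 0 was found for 35 of the 40, beside 7677 of all 16538 genes, and the median was 1.28 beside -0.05. The cyclin gene Ccnb2 rose from 1.91 ± 1.07 CPM untreated to 9.29 ± 2.38 CPM after E+P (log2 fold change 2.26, adjusted p = 0.00405). The ribonucleotide reductase genes Rrm1 and Rrm2 rose from 15.3 to 26.5 CPM (log2 fold change 0.79, adjusted p = 0.00308) and from 1.13 to 6.52 CPM (log2 fold change 2.52, adjusted p = 0.00531). Mki67, the proliferation marker Ki-67, was at 16.9, 64.5, 102 and 97.6 CPM in the untreated libraries and 303, 263 and 193 CPM after E+P (log2 fold change 1.85 ± 0.63, adjusted p = 0.0465). No treated library was below an untreated one for Mki67, yet it did not pass.

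The count for this list depended on the fit. DESeq2 called 16 of the 40 higher, beside 1818 of all 16538 genes. At an adjusted p under 0.05, 19 were called, beside 2239 higher and 2205 lower of all genes. Leaving out 1 library gave between 0 (without E+P 1 or E+P 2, with 783 and 665 of all genes higher) and 7 (without untreated 3, with 939 of all genes higher). Mcm6, a subunit of the replicative helicase, was the member that fell, at 96.3, 113, 107 and 75.0 CPM in the untreated libraries and 59.3, 52.7 and 40.5 CPM after E+P (log2 fold change -0.94 ± 0.19, adjusted p = 0.00305). Of 13 genes for G1 cyclins and inhibitors of cyclin-dependent kinases, 2 rose and 1 fell (23.1% called beside 14.1% of all genes). The inhibitor genes Cdkn1a and Cdkn2b rose from 24.0 to 55.8 CPM (log2 fold change 1.22, adjusted p = 0.00577) and from 0.971 to 5.89 CPM (log2 fold change 2.58, adjusted p = 0.00212), and the cyclin gene Ccnd3 fell from 43.5 to 25.9 CPM (log2 fold change -0.75, adjusted p = 0.00150). With 1 library left out, the call was lost for Ccnb2 without any E+P library or untreated 3 (adjusted p = 0.0102 to 0.0246), Rrm1 without any E+P library (adjusted p = 0.0104 to 0.0219) and Rrm2 without E+P 1 or 2 or untreated 1 or 4 (adjusted p = 0.0177 to 0.0324). The call did not hold in leave-one-out fits for Mcm6 without E+P 2 or 3 (adjusted p = 0.0168 to 0.0206), Cdkn1a without any E+P library or untreated 1 or 3 (adjusted p = 0.0138 to 0.0374) and Cdkn2b without E+P 1 or 2 (adjusted p = 0.0109 to 0.0115). Leave-one-out fits ended the call for Ccnd3 without E+P 2 or 3 (adjusted p = 0.0119 to 0.0148). Among the other settings, calls were lost for Ccnb2 with no low-count filter (adjusted p = 0.0135, the highest of 2 such settings), Rrm1 with scaling by library size only (adjusted p = 0.0215) and Rrm2 with no low-count filter (adjusted p = 0.0148, the highest of 3 such settings). Other settings ended the call for Cdkn1a with a fit of the 7 libraries alone (adjusted p = 0.0191, the highest of 3 such settings).

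Several genes for protein entry into the endoplasmic reticulum rose. Of 26 genes for folding and secretion, 8 rose and 2 fell, a share of 38.5% called beside 14.1% of all genes. Of the 8, Ssr2, Ssr3, Ssr1, Sec61b and Sec61a1 encode the translocon and its partners, and the others were Pdia3, Canx and Ern1. Ssr2 (chr3:88575876-88588419) was at 25.4, 26.5, 30.6 and 23.1 CPM in the untreated libraries and 86.2, 75.7 and 79.7 CPM after E+P (log2 fold change 1.61 ± 0.12, adjusted p = 1.88e-06). Sec61b was at 10.9, 13.1, 13.1 and 9.23 CPM in the untreated libraries and 46.5, 32.5 and 44.0 CPM after E+P (log2 fold change 1.82 ± 0.26, adjusted p = 2.56e-04). Ern1, a sensor of unfolded protein, was at 96.4, 98.7, 176 and 92.5 CPM in the untreated libraries and 417, 315 and 314 CPM after E+P (log2 fold change 1.59 ± 0.27, adjusted p = 0.00129).

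The stress-linked transcription factor gene Ddit3 (CHOP) fell from 121 to 17.7 CPM (log2 fold change -2.77, adjusted p = 0.00980), and Creb3l1 fell from 8.64 to 4.12 CPM (log2 fold change -1.07, adjusted p = 0.00163). The chaperone gene Hspa5 averaged 1625 CPM untreated and 911 CPM after E+P and did not pass (adjusted p = 0.0639). Scaling by library size only gave 4 higher calls in the list, beside 731 of all 16538 genes. Calls that ended without 1 library were those of Ddit3 without any E+P library or untreated 2 or 3 (adjusted p = 0.0215 to 0.0596) and Creb3l1 without E+P 1 or 2 (adjusted p = 0.0109 to 0.0170). A different setting removed the call for Ddit3 with no low-count filter (adjusted p = 0.0336, the highest of 6 such settings).

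Of 31 lipid synthesis genes, 1 was called higher (3.23% beside 7.63% of all genes) and 5 lower (16.1% beside 6.44% of all genes). The desaturase genes moved in opposite directions. Scd1 was at 241, 196, 223 and 407 CPM in the untreated libraries and 78.3, 101 and 93.6 CPM after E+P (log2 fold change -1.55 ± 0.33, adjusted p = 0.00497). Scd2 was at 87.5, 119.9, 92.0 and 218 CPM in the untreated libraries and 286, 394 and 372 CPM after E+P (log2 fold change 1.44 ± 0.35, adjusted p = 0.00971). The fatty acid elongase gene Elovl6 fell from 13.7 to 5.18 CPM (log2 fold change -1.41, adjusted p = 2.51e-04), Acacb from 7.41 to 1.98 CPM (log2 fold change -1.93, adjusted p = 0.00468), and the sterol sensor gene Scap from 87.8 to 50.5 CPM (log2 fold change -0.80, adjusted p = 2.27e-04). Fasn, fatty acid synthase, averaged 142 CPM untreated and 244 CPM after E+P and missed the threshold (adjusted p = 0.0112).

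Of 20 transport genes, 3 rose and 2 fell (25% called beside 14.1% of all genes). Slc39a8, a zinc transporter gene (chr3:135825279-135888572), was at 0.990, 0, 0.800 and 0.726 CPM in the untreated libraries and 27.9, 13.4 and 16.0 CPM after E+P (log2 fold change 4.89 ± 0.68, adjusted p = 3.17e-04). The amino acid transporter gene Slc7a5 rose from 26.4 to 70.7 CPM (log2 fold change 1.42, adjusted p = 0.00464), and the chloride channel gene Cftr from 0.165 to 3.98 CPM (log2 fold change 4.47, adjusted p = 0.00175). Scnn1a, a subunit of the epithelial sodium channel, was at 139, 101, 70.9 and 115 CPM in the untreated libraries and 26.5, 25.9 and 26.4 CPM after E+P (log2 fold change -2.02 ± 0.33, adjusted p = 8.22e-04). The calcium pump gene Atp2c2 fell from 35.8 to 4.43 CPM (log2 fold change -3.00, adjusted p = 0.00246). Slc12a2 averaged 4791 CPM untreated and 1216 CPM after E+P and did not pass (adjusted p = 0.0210). Calls were lost in leave-one-out fits for Scd1 without any E+P library or untreated 1 or 4 (adjusted p = 0.0114 to 0.0258), Scd2 without any E+P library or untreated 1, 2 or 3 (adjusted p = 0.0111 to 0.0545) and Acacb without any E+P library or untreated 1 or 4 (adjusted p = 0.0128 to 0.0375). In fits without 1 library, calls ended for Slc7a5 without E+P 2 or 3 or untreated 1 or 4 (adjusted p = 0.0118 to 0.0359) and Atp2c2 without any E+P library (adjusted p = 0.0134 to 0.0202). By setting, the call was lost for Scd1 with no low-count filter (adjusted p = 0.0186), Scd2 with no low-count filter (adjusted p = 0.0364, the highest of 3 such settings) and Acacb with limma-voom (adjusted p = 0.0197, the highest of 3 such settings). Changed settings left no call for Slc7a5 with a fit of the 7 libraries alone (adjusted p = 0.0232, the highest of 2 such settings) and Atp2c2 with no low-count filter (adjusted p = 0.0104).

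Ligands and receptors of growth factor families were called in both directions. In the EGF family 4 of 14 rose (28.6% beside 7.63% of all genes) and none fell in edgeR, where DESeq2, scaling by library size only and the fit without untreated 2 each called 2 lower. Over all genes, they called 1740, 2165 and 1049 lower, in that order. The ligand gene Epgn was at 5.65, 5.66, 9.92 and 5.26 CPM in the untreated libraries and 32.3, 31.9 and 25.1 CPM after E+P (log2 fold change 2.18 ± 0.36, adjusted p = 7.45e-04). Tgfa rose from 24.6 to 45.1 CPM (log2 fold change 0.87, adjusted p = 0.00667). Erbb2 was at 168.2, 167, 153 and 169 CPM in the untreated libraries and 282, 266 and 299 CPM after E+P (log2 fold change 0.78 ± 0.11, adjusted p = 1.84e-04). Its partner Erbb3 rose from 453 to 636 CPM (log2 fold change 0.49, adjusted p = 0.00272). Egfr averaged 36.4 CPM untreated and 11.2 CPM after E+P and did not pass (adjusted p = 0.0138).

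Among 6 genes of PDGF ligands and receptors, the ligands Pdgfc and Pdgfb rose (33.3% beside 7.63% of all genes). Pdgfc (chr3:81036416-81214040) was at 29.0, 19.8, 28.8 and 29.0 CPM in the untreated libraries and 59.4, 57.2 and 60.7 CPM after E+P (log2 fold change 1.15 ± 0.15, adjusted p = 1.72e-04), with a narrow range among the treated libraries. Pdgfb was at 8.62, 12.3, 15.2 and 12.1 CPM in the untreated libraries and 28.2, 31.7 and 36.4 CPM after E+P (log2 fold change 1.42 ± 0.33, adjusted p = 0.00678). Pdgfa averaged 16.3 CPM untreated and 17.9 CPM after E+P (adjusted p = 0.699) and the receptor gene Pdgfra, whose sequences drive Cre in the mice, 4.33 CPM untreated and 5.26 CPM after E+P (adjusted p = 0.608).

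In the FGF list of 12 (16.7% called beside 14.1% of all genes), the receptor gene Fgfr1 fell from 311 to 113 CPM (log2 fold change -1.46, adjusted p = 0.00609) and the inhibitor gene Spry1 rose from 13.8 to 31.5 CPM (log2 fold change 1.19, adjusted p = 0.00149). Fgfr2 averaged 1419.5 CPM untreated and 323 CPM after E+P and did not pass (adjusted p = 0.0184). In the IGF list of 11 (9.09% called beside 14.1% of all genes), the 1 call was Igfbp5, which binds insulin-like growth factors, at 1418, 741, 1541 and 1552 CPM in the untreated libraries and 341, 425 and 353 CPM after E+P (log2 fold change -1.82 ± 0.35, adjusted p = 0.00272). When 1 library was left out, no call was made for Tgfa without any E+P library or untreated 1, 2 or 3 (adjusted p = 0.0114 to 0.0248), Pdgfb without any E+P library or any untreated library (adjusted p = 0.0108 to 0.0314) and Fgfr1 without any E+P library or untreated 1 (adjusted p = 0.0187 to 0.0271). With 1 library left out, the call was lost for Spry1 without E+P 2 or 3 (adjusted p = 0.0148 to 0.0156) and Igfbp5 without any E+P library (adjusted p = 0.0156 to 0.0205). Under another setting the call was lost for Epgn with a fit of all 28 libraries (adjusted p = 0.0196), Tgfa with a fit of all 28 libraries (adjusted p = 0.0433, the highest of 2 such settings) and Pdgfb with a fit of all 28 libraries (adjusted p = 0.0341, the highest of 3 such settings). Among the other settings, calls were lost for Fgfr1 with no low-count filter (adjusted p = 0.0228) and Igfbp5 with no low-count filter (adjusted p = 0.0103).

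TGF-beta family genes held 9 calls among 21 tested, 5 higher and 4 lower (42.9% called beside 14.1% of all genes). Inhbb, which encodes the beta B subunit of activins and inhibins (chr1:119415465-119422248), was at 269, 334, 338 and 328 CPM in the untreated libraries and 38.2, 40.6 and 30.6 CPM after E+P (log2 fold change -3.12 ± 0.19, adjusted p = 3.92e-07). Bmp3 was at 33.0, 64.4, 41.8 and 86.9 CPM in the untreated libraries and 434, 655 and 796 CPM after E+P (log2 fold change 3.47 ± 0.61, adjusted p = 0.00158). The ligands Tgfb1 and Tgfb3 rose from 34.9 to 76.8 CPM (log2 fold change 1.14, adjusted p = 0.00149) and from 80.0 to 197 CPM (log2 fold change 1.30, adjusted p = 9.59e-04), while the receptor gene Tgfbr2 fell from 259 to 126 CPM (log2 fold change -1.04, adjusted p = 1.11e-04). The remaining calls were Id2 and Gdf15, which rose, and Smad6, which fell. Bmpr1a, a BMP receptor gene, fell from 151 to 121 CPM (log2 fold change -0.33, adjusted p = 0.00977).

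Of 26 Wnt pathway genes, 3 rose and 3 fell (23.1% called beside 14.1% of all genes). Lgr4, a receptor for R-spondins, was at 19.2, 18.2, 20.3 and 21.7 CPM in the untreated libraries and 48.7, 72.5 and 83.6 CPM after E+P (log2 fold change 1.78 ± 0.23, adjusted p = 1.58e-04). The ubiquitin ligase genes Znrf3 and Rnf43, which remove Wnt receptors, went apart: Znrf3 rose from 11.8 to 23.6 CPM (log2 fold change 1.00, adjusted p = 0.00219), while Rnf43 fell from 35.8 to 13.8 CPM (log2 fold change -1.37, adjusted p = 5.59e-05). Of the Frizzled receptors, Fzd2 rose from 1.44 to 6.65 CPM, Fzd4 fell from 46.7 to 4.02 CPM and Fzd7 fell from 44.3 to 28.3 CPM (log2 fold change 2.17, -3.51 and -0.65). Of 15 Notch pathway genes, Hey1 alone was called (6.67% called beside 14.1% of all genes). The call did not hold in leave-one-out fits for Tgfb1 without E+P 2 (adjusted p = 0.0109), Tgfb3 without E+P 2 (adjusted p = 0.01005) and Bmpr1a without any E+P library or any untreated library (adjusted p = 0.0151 to 0.0446). Leave-one-out fits ended the call for Znrf3 without E+P 1 or untreated 1 (adjusted p = 0.0114 to 0.0198), Fzd2 without E+P 1 or 2 or untreated 1 (adjusted p = 0.0109 to 0.0194) and Fzd7 without any E+P library or untreated 3 or 4 (adjusted p = 0.0101 to 0.0201). Other settings ended the call for Bmpr1a with no low-count filter (adjusted p = 0.0422, the highest of 4 such settings), Rnf43 with a fit of all 28 libraries (adjusted p = 0.0147) and Fzd7 with a fit of all 28 libraries (adjusted p = 0.0110).

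Some genes of tight junctions and of the basement membrane rose, and none fell in edgeR with TMM scaling. In the tight junction list, 5 of 20 rose (25% beside 7.63% of all genes), namely Cldn3, Cldn7, Cldn8, Ocln and Cgn. Cldn3 was at 119, 128, 136 and 127 CPM in the untreated libraries and 261, 263 and 234 CPM after E+P (log2 fold change 0.99 ± 0.15, adjusted p = 4.79e-04). Cldn8 rose from 22.0 to 57.8 CPM (log2 fold change 1.39, adjusted p = 0.00619). This depended on the scaling, since library size alone gave 1 call higher and 1 lower and the fit of all 28 libraries gave none in either direction. Over all genes, library size alone called 731 higher and 2165 lower, and the fit of all 28 libraries 1062 and 885.

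Of 24 integrin and basement membrane genes, 5 rose (20.8% beside 7.63% of all genes). Lamc1, a gamma chain of laminin (chr1:153218922-153332786), was at 81.3, 139.7, 117 and 171 CPM in the untreated libraries and 559, 563 and 539.6 CPM after E+P (log2 fold change 2.12 ± 0.18, adjusted p = 3.91e-06). Itgb1, the beta 1 integrin, was at 297, 288, 273 and 333 CPM in the untreated libraries and 433, 427 and 443 CPM after E+P (log2 fold change 0.54 ± 0.10, adjusted p = 0.00191). Itga3, the alpha 3 integrin, was at 108, 119, 117 and 101 CPM in the untreated libraries and 163, 217 and 197 CPM after E+P (log2 fold change 0.79 ± 0.11, adjusted p = 2.31e-04). Itgb5 and Lamb3 rose as well, from 95.1 to 173 CPM and 24.1 to 40.6 CPM. DESeq2 called 4 members lower, scaling by library size only and the fit of all 28 libraries 1 each, and the fit without untreated 2 called 2. Over all genes, these fits called 1740, 2165, 885 and 1049 lower, in that order. Calls that ended without 1 library were those of Cldn7 without any E+P library or untreated 1 or 3 (adjusted p = 0.0120 to 0.0206), Cldn8 without any E+P library or untreated 1 or 3 (adjusted p = 0.0116 to 0.0340) and Itgb1 without any E+P library (adjusted p = 0.0127 to 0.0143). Calls were lost in leave-one-out fits for Itgb5 without E+P 2 or 3 (adjusted p = 0.0120 to 0.0133). A different setting removed the call for Cldn3 with a fit of all 28 libraries (adjusted p = 0.247), Cldn7 with a fit of all 28 libraries (adjusted p = 0.232, the highest of 2 such settings) and Cldn8 with a fit of all 28 libraries (adjusted p = 0.0295, the highest of 3 such settings). By setting, the call was lost for Itga3 with a fit of all 28 libraries (adjusted p = 0.0733) and Itgb1 with scaling by library size only (adjusted p = 0.0504).

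Genes of the interferon response and of MHC class I parted. Of 23 tested, 4 rose and 7 fell, 47.8% beside 14.1% of all genes. B2m, the light chain of MHC class I, was at 344, 196, 239 and 416 CPM in the untreated libraries and 3026, 2302 and 3034 CPM after E+P (log2 fold change 3.22 ± 0.35, adjusted p = 5.89e-05). H2-D1 and H2-K1 rose from 447 to 1036 CPM (log2 fold change 1.21, adjusted p = 0.00116) and from 522 to 952 CPM (log2 fold change 0.87, adjusted p = 0.00864). Bst2 rose from 5.61 to 33.0 CPM (log2 fold change 2.56, adjusted p = 2.08e-04). The higher genes were thus the heavy and light chains and Bst2.

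The 7 that fell were Irf1, Irf7, Ifit2, Ifit3, Oasl2 and the immunoproteasome genes Psmb8 and Psmb9. Leaving out E+P 2 left none of these calls in the list, and leaving out E+P 1 or E+P 3 gave 2 lower calls. Among all genes, 475 were called lower without E+P 2, 523 without E+P 1 and 426 without E+P 3. Oasl2 was at 22.5, 20.7, 42.9 and 45.6 CPM in the untreated libraries and 10.6, 7.89 and 9.56 CPM after E+P (log2 fold change -1.82 ± 0.36, adjusted p = 0.00275). Psmb9 fell from 12.8 to 5.06 CPM (log2 fold change -1.33, adjusted p = 0.00834). H2-D1 and H2-K1 are similar genes among which reads could have been divided. Of 21 chemokine and cytokine genes (14.3% called beside 14.1% of all genes), Cxcl10 rose from 1.25 to 7.80 CPM (log2 fold change 2.62, adjusted p = 5.39e-04), and Cx3cl1 and Il15 fell from 75.2 to 31.7 CPM (log2 fold change -1.25, adjusted p = 0.00209) and from 2.21 to 0.414 CPM. The 4 tested genes of MHC class II had no call in edgeR, with H2-DMa closest (adjusted p = 0.0116) and H2-DMb1 next (adjusted p = 0.0475), where DESeq2, limma-voom and edgeR without the low-count filter each called 1 higher. Those settings called 1818, 1518 and 1175 of all genes higher. Beside these values, the sum of leukocyte markers was higher after E+P, with Ptprc at 11 counts over the untreated and 8 over the E+P libraries. In fits without 1 library, calls ended for H2-D1 without E+P 2 or 3 (adjusted p = 0.0111 to 0.0119), Oasl2 without any E+P library (adjusted p = 0.0147 to 0.0257) and Irf7 without any E+P library or untreated 3 or 4 (adjusted p = 0.0117 to 0.0288). When 1 library was left out, no call was made for Psmb9 without any E+P library or untreated 1, 2 or 4 (adjusted p = 0.0130 to 0.0382) and Cx3cl1 without E+P 2 or 3 (adjusted p = 0.0123 to 0.0139). Changed settings left no call for Oasl2 with no low-count filter (adjusted p = 0.0103), Irf7 with limma-voom (adjusted p = 0.0108) and Cx3cl1 with a fit of all 28 libraries (adjusted p = 0.0169).

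Immediate early genes, which also respond to tissue dissociation, gave 2 calls among 21 (9.52% called beside 14.1% of all genes), Klf2 (5.44 to 29.7 CPM, log2 fold change 2.44, adjusted p = 0.00183) and Klf6 (553 to 1261 CPM, log2 fold change 1.19, adjusted p = 0.00311). Fos averaged 793 CPM untreated and 1005 CPM after E+P (adjusted p = 0.529) and Jun 1065 CPM untreated and 1624 CPM after E+P (adjusted p = 0.198). Of the basal markers, Trp63, which encodes p63, was at 0.291, 1.62, 0.960 and 2.22 CPM in the untreated libraries and 28.1, 21.2 and 26.0 CPM after E+P (log2 fold change 4.26 ± 0.49, adjusted p = 5.92e-05). Krt17 rose from 2.85 to 15.1 CPM (log2 fold change 2.38, adjusted p = 0.00396). The defining basal keratins were low in both groups, Krt14 2.18 CPM untreated and 2.499 CPM after E+P and Krt5 0.522 CPM untreated and 0.297 CPM after E+P. Among fibroblast markers, the matrix proteoglycan gene Dcn rose from 5.24 to 40.1 CPM (log2 fold change 2.96, adjusted p = 0.00387), while the collagen genes Col1a1 and Col3a1 averaged 5.53 CPM untreated and 0.790 CPM after E+P and 9.61 CPM untreated and 0.934 CPM after E+P and did not pass. Mbp fell from 84.2 to 35.8 CPM (log2 fold change -1.23, adjusted p = 5.36e-04). With 1 library left out, the call was lost for Klf2 without E+P 1 or 2 or untreated 3 or 4 (adjusted p = 0.0101 to 0.0129), Klf6 without E+P 2 or 3 or untreated 4 (adjusted p = 0.0134 to 0.0204) and Krt17 without E+P 1 or 2 or untreated 2, 3 or 4 (adjusted p = 0.0109 to 0.0174). The call did not hold in leave-one-out fits for Dcn without E+P 2 or 3 or untreated 2 (adjusted p = 0.0167 to 0.0206). Under another setting the call was lost for Klf2 with a fit of the 7 libraries alone (adjusted p = 0.0208), Klf6 with no low-count filter (adjusted p = 0.0153, the highest of 2 such settings) and Krt17 with a fit of all 28 libraries (adjusted p = 0.0208, the highest of 5 such settings). Among the other settings, calls were lost for Dcn with no low-count filter (adjusted p = 0.0149). In leave-one-out fits the log2 fold change was 3.12 for Klf2 without untreated 1 and 1.75 for Krt17 without E+P 1.

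**Figure D4:**
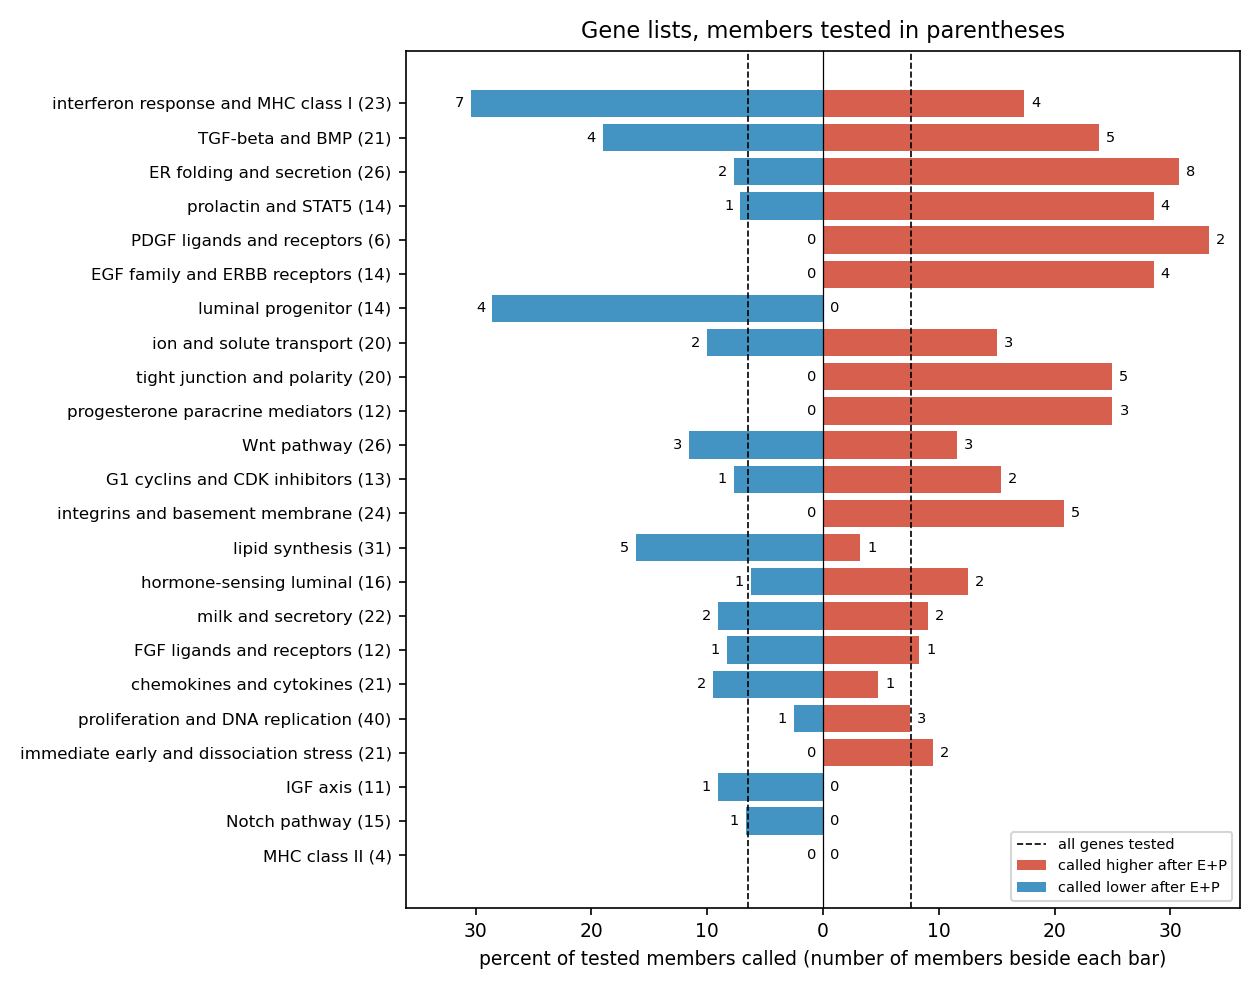
Percent of the tested members of each of 23 gene lists that were called higher (right) or lower (left) after E+P in tdTomato+ luminal cells, with the number called beside each bar and dashed lines at the shares of all genes tested. The interferon and MHC class I list has the highest share of lower calls with 7 of 23, and luminal progenitor genes were called only lower, with 4 of 14.

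The E+P change was set against that in the GFP+ luminal cells of the same mice through the interaction of subset and treatment. It was called for 376 genes (2.27% of those tested), and the change in tdTomato+ cells was the more positive for 246 of them and the more negative for 130. Of the 376, 301 were called in tdTomato+ cells, and 18 were called in both subsets with opposite signs. The count was the least stable of those given, with 33 and 38 genes when E+P 2 or E+P 3 was left out. The fit had no term for the mouse, although both subsets came from the same 7 mice. With the mouse as a random block, limma-voom called 755 differences, of which 370 were among the 376, and 425 without it. In GFP+ cells alone 985 genes were called for E+P, and 321 genes were called in both subsets in the same direction, 13.8% of the tdTomato+ and 32.6% of the GFP+ calls.

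Of the 113 genes named by the rules for single genes, 12 differed between the subsets. Folr1 had a log2 fold change of 2.78 in tdTomato+ and -0.0030 in GFP+ cells (difference 2.79, adjusted p = 1.16e-04). Itga3 changed by 0.79 and -0.38 (adjusted p = 9.43e-04), Lamc1 by 2.12 and 0.84 (adjusted p = 0.00884), and Ssr2 by 1.61 and 0.28 (adjusted p = 8.04e-04). Inhbb fell in both, with log2 fold changes of -3.12 and -1.15 (adjusted p of the difference = 4.98e-04). Folr1, Lamc1 and Ssr2 thus had the larger increase in tdTomato+ cells, and Inhbb the larger decrease.

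Mcm6 went in opposite directions, with -0.94 in tdTomato+ and 1.20 in GFP+ cells (difference -2.15, adjusted p = 6.83e-04). For the 40 proliferation genes, the median log2 fold change was 1.28 in tdTomato+ and 2.505 in GFP+ cells. In GFP+ cells 31 of the 40 were called higher, beside 525 of all 16538 genes. Yet the difference itself was called only for Mcm6 and Aurka, beside 376 of all genes (2.27%). Stat5a changed by 1.63 and 1.80, and the difference was not called (adjusted p = 0.737). Larger differences, those of Tnfsf11 (2.74, adjusted p = 0.547), Calca (1.49, 0.832), Greb1 (2.24, 0.282), Esr1 (1.04, 0.316) and Pdgfc (0.58, 0.133), were not called either. Tnfsf11 changed by 8.24 in tdTomato+ and 5.51 in GFP+ cells, with a standard error of 2.35 for the difference. For these genes the lack of a call does not show equal changes. With the mouse as a random block, these 6 remained uncalled (adjusted p = 0.0856 for Pdgfc to 0.650 for Calca), the 12 named differences were called, and 5 proliferation genes differed. Leaving out 1 mouse, with both its luminal libraries, kept the differences of Folr1 and Inhbb (adjusted p up to 0.00579 and 0.00953). It ended that of Mcm6 in 1, of Ssr2 and Itga3 in 2 and of Lamc1 in 5 of 7 fits (adjusted p up to 0.0108, 0.0156, 0.0193 and 0.0818).

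**Figure D5:**
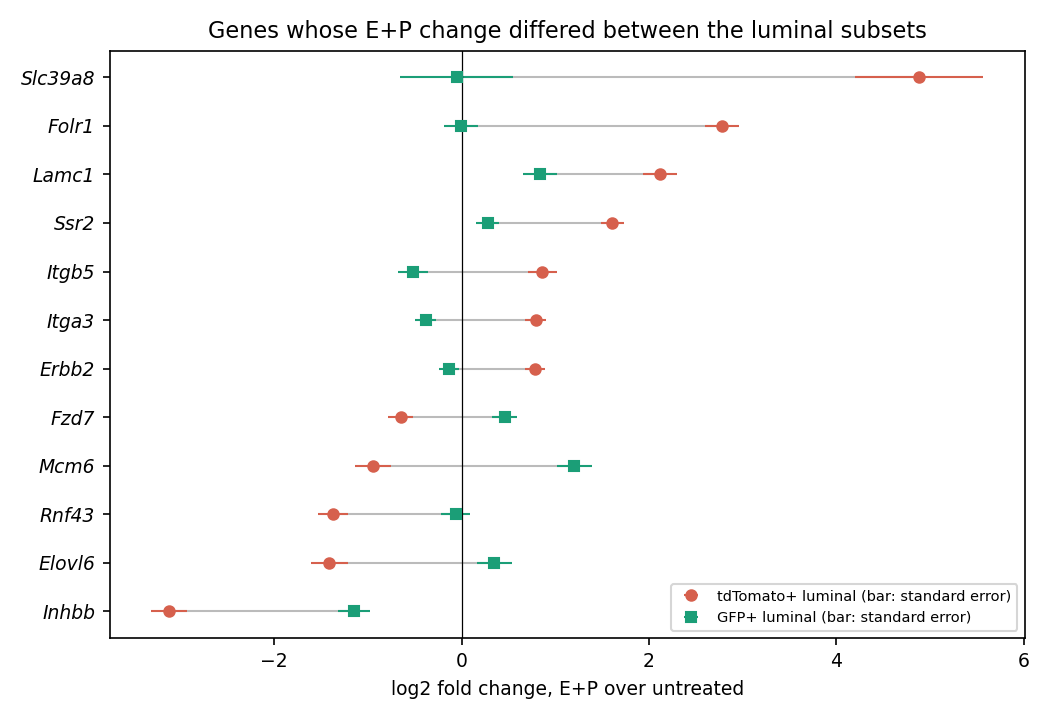
Log2 fold change of E+P over untreated in tdTomato+ (circles) and GFP+ luminal cells (squares), with standard errors as bars, for the 12 named genes whose change differed between the subsets. Folr1 is at 2.78 against -0.0030 and Mcm6 at -0.94 against 1.20.

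Promoters were searched for binding motifs of steroid receptors, of STAT factors and of forkhead factors. RefSeq promoter sequences (GRCm38.p6) matched 10747 of the 16538 genes by symbol. In the 250 bases before the RefSeq start, on either strand, the STAT motif TTCNNNGAA was present in 5.48% of 930 higher, 7.96% of 792 lower and 7.27% of all genes. The estrogen response element, GGTCA and TGACC 3 bases apart, was in none of the higher or lower promoters and in 1 of all. The progesterone and glucocorticoid response element, GNACA and TGTNC 3 bases apart, was in 6 higher (0.645%), 2 lower (0.253%) and 34 of all promoters (0.316%). The forkhead motif TGTTTAC was in 2.15%, 3.28% and 2.70%. These shares are descriptions without a test.

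None of the promoters of Calca, Tnfsf11 and Ltf, which are the called mediator and milk genes with a sequence, held any of these motifs. Of the 6 genes called higher whose promoter held the progesterone and glucocorticoid element, the 3 with the largest change and at least 10.0 CPM are shown, so that the motif can be seen in its place. They were chosen after their values were seen. Sgk1, a kinase gene induced by steroid hormones, was at 188, 94.9, 142 and 128 CPM in the untreated libraries and 602, 527 and 499.9 CPM after E+P (log2 fold change 1.97 ± 0.23, adjusted p = 6.41e-05). Suox, sulfite oxidase, was at 7.16, 6.40, 5.92 and 6.37 CPM in the untreated libraries and 53.6, 49.4 and 61.9 CPM after E+P (log2 fold change 3.09 ± 0.22, adjusted p = 1.12e-06). Tinagl1, which encodes a matrix protein, was at 36.7, 51.1, 56.1 and 46.1 CPM in the untreated libraries and 123, 176 and 239 CPM after E+P (log2 fold change 1.92 ± 0.32, adjusted p = 0.00109). In each, all 3 treated libraries were above the untreated ones. The sequences run 5′ to 3′ on the strand of the gene with the motif in capitals. It begins 188, 46 and 147 bases before the RefSeq start used for Sgk1, Suox and Tinagl1. In the gene annotation used for the counts, Sgk1 spans chr10:21882184-21999903 and Tinagl1 chr4:130164454-130175122, so these 2 regions lie inside the gene. The region of Suox overlaps its gene, chr10:128669894-128674073.
Sgk1, chr10:21993640-21993889, + strand: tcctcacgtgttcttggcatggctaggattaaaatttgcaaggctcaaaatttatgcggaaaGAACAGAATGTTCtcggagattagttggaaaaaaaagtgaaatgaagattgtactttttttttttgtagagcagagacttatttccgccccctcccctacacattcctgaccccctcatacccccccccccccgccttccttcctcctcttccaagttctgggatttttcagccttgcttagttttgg
Suox, chr10:128673919-128674168, - strand: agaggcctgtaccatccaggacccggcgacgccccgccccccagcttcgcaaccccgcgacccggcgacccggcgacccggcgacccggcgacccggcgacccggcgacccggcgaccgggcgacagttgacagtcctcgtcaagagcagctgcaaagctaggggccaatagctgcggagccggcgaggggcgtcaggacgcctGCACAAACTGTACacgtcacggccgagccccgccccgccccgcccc
Tinagl1, chr4:130174803-130175052, - strand: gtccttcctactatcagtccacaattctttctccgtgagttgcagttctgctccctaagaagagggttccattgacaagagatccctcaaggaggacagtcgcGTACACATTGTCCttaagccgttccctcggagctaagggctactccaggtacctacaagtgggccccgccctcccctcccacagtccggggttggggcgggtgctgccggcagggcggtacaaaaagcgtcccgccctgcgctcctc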

How the data were processed

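RNA was sequenced from sorted mammary cells of PdgfrαCre R26mTmG mice, with libraries from a stranded total RNA kit for low input. The raw read counts per gene were deposited by the authors, who aligned reads with STAR 2.5.2a to GRCm38.p5 with GENCODE annotation, and the strand column that was counted is not given in the sources used here. No sample column was left unused, and no 2 libraries held identical values.

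The 7 tdTomato+ luminal libraries hold between 12199964 and 24583803 counts. Counts of the 14 luminal libraries were filtered with filterByExpr, scaled by TMM and tested two-sided in R 4.3.3 by quasi-likelihood with robust dispersion (edgeR 4.0.16), with 1 term for each of the 4 groups of subset and treatment. Genes were called at a Benjamini-Hochberg adjusted p under 0.01 over the 16538 genes tested, and the difference between subsets was the interaction in the same fit. Standard errors, given after ± for log2 fold changes, are the absolute log2 fold change divided by the square root of the F statistic. They are approximate and unreliable for genes near 0 counts. After a mean CPM, ± gives the SD. Single values were compared by exact permutation over the 7 libraries. On simulated data for this comparison (16096 genes), 37% of 2-fold and 42.55% of 4-fold changes were called, and 2 unchanged genes. Only 200 genes were changed there, while 14.1% of genes were called in the data, so these shares need not hold for the data. Alternatives were other scalings, DESeq2 1.42.0, limma-voom (limma 3.58.1), no filter, the 7 or all 28 libraries, a replicate block and an adjusted p under 0.05. Each mouse was also left out in turn, with its GFP+ and its tdTomato+ luminal library. A fit without the 10 most abundant genes was chosen after seeing the data.

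Named genes were the 12 called genes per direction with the largest change, at least 10.0 CPM in the higher group, no overlap and a gene symbol that is not a predicted-gene name, 19 fixed genes, and up to 3 called members per direction of each list with at least 5 CPM. Other list members were named after their values were seen. Members and lists were chosen with earlier results of these data known. A member of the integrin and basement membrane list is not reported here and was left out of the counts of that list.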

Additional observations from a re-analysis of the deposited data

Results flagged for a closer look

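A single untreated tdTomato+ luminal library stood apart from the other three by Dixon's criterion in 15 of the 113 named genes. Chance flags about 1 in 20 groups of this size. Untreated 4 was high for Csn2 (19.8 CPM), C1s1 (81.8 CPM), Socs2 (43.2 CPM), Csn1s2b (0.342 CPM) and, at the level of single counts, Spink8 and Klk1b1 (0.0427 CPM each). Untreated 3 was high for Stat5a (153 CPM), Epgn (9.92 CPM) and Ern1 (176 CPM) and low for Erbb2 (153 CPM). Untreated 2 was low for Pdgfc (19.8 CPM) and Igfbp5 (741 CPM) and high for Bmpr1a (169.6 CPM). Untreated 1 was low for Inhbb (269 CPM) and high for Acsl6 (0.116 CPM).

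The E+P change differed between tdTomato+ and GFP+ luminal cells, by the test of the interaction, for 12 named genes. On the log2 scale, the tdTomato+ change was the more positive for Slc39a8 (4.93), Folr1 (2.79), Itgb5 (1.38), Ssr2 (1.33), Lamc1 (1.28), Itga3 (1.17) and Erbb2 (0.91). It was the more negative for Mcm6 (-2.15), Inhbb (-1.97), Elovl6 (-1.76), Rnf43 (-1.31) and Fzd7 (-1.11). The differences of Slc39a8 and Fzd7 ended in 5 of 7 fits without 1 mouse (adjusted p up to 0.0573 and 0.0405). Those of Erbb2, Itgb5 and Rnf43 ended in 4 (up to 0.0423, 0.0394 and 0.0274) and that of Elovl6 in 3 (up to 0.0241). Slc39a8 was also not called by limma-voom without the mouse as a block (adjusted p = 0.0130).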

How the results depend on the processing

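The number of genes called for E+P, 2327, was 2318 with DESeq2 size factors, 2568 with limma-voom, 2137 without the filter and 1947 in the fit of all 28 libraries. DESeq2 called 3558, of which 1740 were lower, and an adjusted p under 0.05 called 4444 (2239 higher, 2205 lower). Scaling by library size only gave 731 higher and 2165 lower genes. The fit without the 10 most abundant genes called 2325 (1214 higher, 1111 lower), of which 2276 were among the 2327. The 376 differences between subsets became 1014 with DESeq2, 755 with limma-voom and the mouse as a random block, and 1089 at an adjusted p under 0.05. Leaving out 1 mouse, with both its luminal libraries, gave 1140 to 2144 calls, 665 to 1095 higher, 426 to 1049 lower and 33 to 314 differences between subsets. Fits with fewer libraries also have fewer degrees of freedom.

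Untreated and treated libraries share replicate numbers but come from different mice. Deviations of the 3 same-numbered pairs had r between -0.061 and -0.0048, against -0.178 to 0.178 for other numbers, and 0 of 3 E+P libraries correlated best with their own number. With the replicate number as a block, 2177 genes were called (1194 higher, 983 lower), and 438 differences between subsets. Of the 101 called named genes, 13 were not called with this block (adjusted p up to 0.0233 for Tspan8, 0.0200 for Psmb9 and 0.0177 for Rrm2), and Csn2 was called (log2 fold change 8.65, adjusted p = 1.61e-06).

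Of 101 called named genes, 47 kept the call in all 7 leave-one-out fits and 57 in all 9 other settings at this threshold, the replicate block apart. Csn2, which was not called, turned from 0.26 to -5.57 without E+P 1 to -0.14, -0.16 and -0.13 without untreated 1, 2 and 3, and to 7.69 without untreated 4. Depth limits genes under 0.122 to 0.246 CPM in a single library.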

Other observations

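The following genes were chosen after their values were seen, and their values are given without explanation. Fkbp5, a co-chaperone of steroid receptors, averaged 17.3 CPM untreated and 267 CPM after E+P (log2 fold change 3.94 ± 0.45, adjusted p = 9.17e-05), and Tsc22d3, which encodes GILZ, 13.98 and 118 CPM (log2 fold change 3.06 ± 0.24, adjusted p = 2.71e-06). Zbtb16, which encodes the zinc finger protein PLZF, averaged 57.5 and 305 CPM (log2 fold change 2.40 ± 0.52, adjusted p = 0.00543), and its call was lost in 6 of 7 leave-one-out fits (adjusted p = 0.0112 to 0.0281), all but that without untreated 1. Hsd11b2, the enzyme that inactivates cortisol and corticosterone, was at 0.160 to 1.97 CPM in the untreated libraries and at 112, 15.6 and 19.98 CPM after E+P (log2 fold change 5.67 ± 1.24, adjusted p = 0.00570). E+P 1 stood far above the other treated libraries for Hsd11b2, and the call was lost without any untreated library (adjusted p = 0.0135 to 0.0263). Nr3c2, the mineralocorticoid receptor, fell from 71.7 to 5.36 CPM (log2 fold change -3.73 ± 0.24, adjusted p = 5.05e-07). Its change in GFP+ luminal cells was -0.50, and the difference of -3.23 was called (adjusted p = 1.16e-04). Among abundant genes, Gpx3, a secreted glutathione peroxidase, rose from 946 to 11295 CPM (adjusted p = 0.00791), and Ptn, the growth factor pleiotrophin, fell from 2353 to 253 CPM (adjusted p = 0.00983). The call of each held among leave-one-out fits only without untreated 4, with an adjusted p of 0.0137 to 0.0309 for Gpx3 and 0.0153 to 0.0506 for Ptn in the other 6.

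Large differences between the luminal subsets were also found for Tcn2, a carrier of vitamin B12, with a log2 fold change of 3.51 in tdTomato+ and 0.41 in GFP+ cells (adjusted p = 1.16e-04), and for Os9, of endoplasmic reticulum quality control, with 1.93 and -0.21 (adjusted p = 8.48e-05). Ramp1, a subunit of the receptor for calcitonin gene-related peptide, had 2.09 and -2.04 (adjusted p = 3.21e-04).

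In CPM by library size, Esr1 and Zfp979 were lower after E+P without overlap in all 4 sorted populations. In GFP+ stromal cells Esr1 was at 65.5 to 113.6 CPM untreated and 25.6 to 29.0 CPM after E+P, and Zfp979 at 3.10 to 7.35 and 0.888 to 1.76 CPM. Zfp990 was lower without overlap in both luminal populations and in GFP+ stromal cells, the latter at 3.56 to 5.36 and 0 to 0.0888 CPM. In tdTomato+ stromal cells Zfp990 was at 0 to 7.28 CPM untreated and had no count after E+P. Whether these decreases depend on the treatment or on the mice was not tested. Penk was higher after E+P in both luminal populations and, in tdTomato+ stromal cells, lower, at 15.5 to 48.3 CPM untreated and 3.50 to 12.8 CPM after E+P. In GFP+ stromal cells Penk was at 181 to 497 CPM untreated and 471 to 597 CPM after E+P, and the groups overlapped.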
